A study of Mus musculus with 10 samples.

Results

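The genes described here are 45 chaperone, heat shock and unfolded protein response genes, chosen by name from a fixed list rather than by their values. All 45 were present among the 55809 gene rows of the count tables, and all 45 passed the filter of a mean count of at least 10 that left 16363 genes for testing. They fall into 25 cytosolic and mitochondrial genes and 20 genes of the endoplasmic reticulum (ER). The counts came from bulk RNA-seq of Treg cells, the Foxp3-expressing regulatory T cells, taken from spleen and lymph nodes of mice. Every mouse carried Foxp3-AID, an allele in which Foxp3 is fused to an auxin-inducible degron and which, per the study's methods, also encodes ZsGreen and Cre. Every mouse received 5-ph-IAA, an auxin analog, over 14 days. In the ROSA26-TIR1(F74G) group (R26-TIR1(F74G), 6 libraries) the CAG-driven TIR1(F74G) cassette, with mCherry, is switched on by Cre in Foxp3-expressing cells, and the mutated ligase recruits the tagged protein for degradation when 5-ph-IAA is present. In the ROSA26-WT group (R26-WT, 4 libraries) no TIR1 is made and Foxp3 protein is kept. The labels give no age, the header of the count tables names male mice, and the general sorting scheme of the study adds mCherry to the gate for cells with TIR1. Where that scheme was used, the gate and the genotype cannot be told apart. Nothing in the labels says more about how the libraries of a group are separate, so p-values measure the spread between these libraries.

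Chaperones bind unfolded proteins and help them reach or keep their folded state. In the cytosol, HSF1 is the transcription factor that raises heat shock genes when unfolded proteins accumulate, and HSP70, HSP90 and the ring-shaped chaperonin do much of the folding work together with J proteins and cochaperones. In the ER, the sensors IRE1, ATF6 and PERK start the unfolded protein response, which raises ER chaperones and degradation genes, lowers protein synthesis through phosphorylation of the initiation factor eIF2 and, when prolonged, can lead to cell death. Plasma cells, which secrete antibody, are known for a strong ER arm.

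Libraries held 24158699 to 54795718 counted read pairs. The mean was 51171200 in R26-WT and 40328800 in R26-TIR1(F74G) (two-sided exact permutation test over 210 splits, p 0.0476). The 8 Treg and T cell markers summed to 7631 to 9011 TPM, a level per transcript length and library size, in R26-WT and 7807 to 8518 in R26-TIR1(F74G), with Foxp3, Il2ra, Ctla4 and Cd4 present in every library. Erythroid markers summed to under 1 TPM in every library. Myeloid markers summed to 3.15 to 7.73 TPM and 6 of those 8 were under 1 TPM in all libraries. Of the B cell markers, Cd79b had 42.995 TPM in R26-WT and 35.7 in R26-TIR1(F74G), with a log2 fold change of −0.33 that was not called. Cd22 was low, at 5.07 to 15.5 normalized counts in R26-WT and 23.6 to 272.5 in R26-TIR1(F74G), with the highest value in replicate 9 (log2 fold change 2.68, DESeq2 adjusted p 0.00266, edgeR adjusted p 0.2296). The 6 CD8 T and NK cell markers summed to 58.7 to 76.7 TPM in R26-WT and 56.5 to 65.6 in R26-TIR1(F74G). Of these, Cd8a, Ncr1 and Klrk1 were under 1 TPM in all libraries. Klrb1c and Klrd1 had means under 1 TPM in both groups, so Cd8b1 carried most of the sum. Of the 10 plasma cell markers, Jchain, Sdc1, Mzb1 and Tnfrsf17 were under 1 TPM in all libraries, and Ighm carried most of the sum, which was 742.9 to 919.03 TPM in R26-WT and 567.2 to 642.4 in R26-TIR1(F74G). Ighm was called lower in R26-TIR1(F74G) by DESeq2 (log2 fold change −0.54, adjusted p 0.0137) and not by edgeR (adjusted p 0.118), and its groups did not overlap. Without Ighm the sums were 13.7 to 36.2 and 23.0 to 47.4 TPM. Of 18 proliferation genes, DESeq2 called 14 higher in R26-TIR1(F74G), where it called 1.4% of all tested genes higher, and edgeR called 5. Pcna, of the same list, was at −0.14 on the log2 scale. The list summed to 182.6 to 269.8 TPM in R26-WT and 349.7 to 523.2 TPM in R26-TIR1(F74G). The part of B cell, plasma cell and proliferation genes in the values of the chaperone genes was not tested.

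The first comparison asked how many chaperone and stress genes differed between Treg cells with and without the ligase that degrades Foxp3. In the DESeq2 fit over all 16363 tested genes, 1 of the 45 members passed an adjusted p of 0.05, and it was lower in R26-TIR1(F74G). This was Ppp1r15a, in the ER set, while none of the 25 cytosolic and mitochondrial genes was called. Over all tested genes DESeq2 called 1.74% in either direction and 0.336% in the lower direction, so the count among the members is near the background. An unadjusted DESeq2 p under 0.05 was reached by 2 of the 45 members (Ppp1r15a and Dnajb4) and by 6.86% of all tested genes. The edgeR quasi-likelihood test called 0 of the 45 members, where it called 0.373% of all tested genes, and gave 2 members an unadjusted p under 0.05, against 6.21% of all tested genes. The normalized counts (counts divided by DESeq2 size factors) of the groups did not overlap for the same 2 members, both lower in R26-TIR1(F74G). Over all tested genes this share was 2.37% in either direction and 0.801% in the lower direction.

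The sizes of the differences ranged from −0.77 for Ppp1r15a to 0.75 for Hspa1b on the log2 scale. The median log2 fold change (R26-TIR1(F74G) minus R26-WT) was 0.0092 over the 45 members, 0.0075 over the cytosolic and mitochondrial genes, 0.038 over the ER genes and 0.00063 over all tested genes. The value was positive for 26 members and negative for 19. In the fits that each left out 1 library the sign differed from that of the full fit at least once for 29 of the 45 members. The 95% interval of the difference stayed within a 1.5-fold change either way for 35 of the 45 members and within a 2-fold change for 42, against 8858 and 13114 of the 16363 tested genes. Summed over the 25 cytosolic and mitochondrial genes, levels were 4122 to 5520 TPM in the R26-WT libraries and 4146 to 5776 TPM in the R26-TIR1(F74G) libraries. Summed over the 20 ER genes they were 2463 to 2914 and 2643 to 2852 TPM. The ranges of the groups overlap in both sums.

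**Figure D1:**
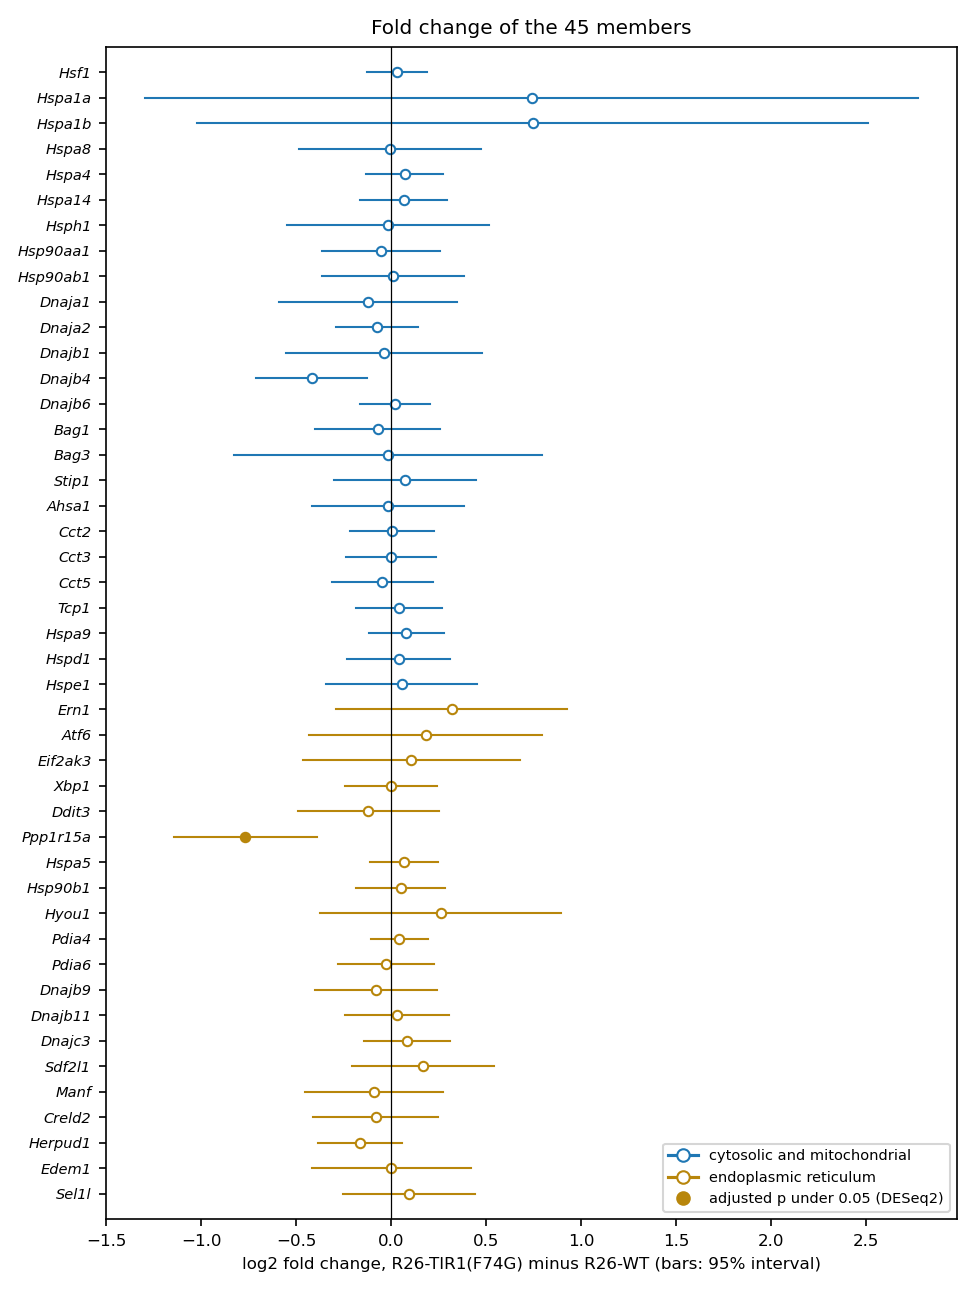
Log2 fold change (R26-TIR1(F74G) minus R26-WT, horizontal axis) of each of the 45 members with its 95% interval, for the 25 cytosolic and mitochondrial genes in blue and the 20 ER genes in ochre. Ppp1r15a, at −0.77, is the filled point (DESeq2 adjusted p under 0.05), Dnajb4 lies at −0.42, and the widest intervals belong to Hspa1a and Hspa1b.

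Ppp1r15a encodes GADD34, the inducible subunit that brings a phosphatase to eIF2 and so restores protein synthesis after stress. The gene lies on chr7:45172340-45175692 on the minus strand (GRCm39), and 0.41% of its exon bases overlap another gene, Tulp2. The normalized counts were 12425, 7930, 7750 and 6034 in R26-WT replicates 1 to 4. In R26-TIR1(F74G) replicates 5 to 10 they were 5797, 5169, 4642, 5623, 4390 and 4486. All 6 R26-TIR1(F74G) libraries lay below all 4 R26-WT libraries, and R26-WT replicate 1 lay above the other libraries. The means were 8535 ± 2731 (SD, n = 4) and 5018 ± 602.2 (SD, n = 6). Ppp1r15a fell by 0.77 on the log2 scale (SE 0.19, 0.588-fold, 95% interval 0.453 to 0.762, DESeq2 adjusted p 0.00592). The edgeR adjusted p was 0.0928 and that of limma voom with quality weights 0.143, so the call rests on DESeq2. In the 10 DESeq2 fits that each left out 1 library the log2 fold change lay between −0.90 and −0.53 (the latter without R26-WT replicate 1), the adjusted p between 0.000392 and 0.0382, and Ppp1r15a was called in each. It was also called with the trend on exon length removed (adjusted p 0.00169) and with a surrogate variable in the DESeq2 design (adjusted p 0.00623). In bulk samples, fewer cells with a transcript and less of it per cell cannot be told apart.

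The promoter of Ppp1r15a is shown because it belongs to the 1 called member, as 250 bases before and 50 bases after its start site (chr7:45175643-45175942, minus strand, GRCm39 with GENCODE M39 starts). Capitals mark a match to the cAMP response element TGACGTCA, 12 to 5 bases before the start site.

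Ppp1r15a: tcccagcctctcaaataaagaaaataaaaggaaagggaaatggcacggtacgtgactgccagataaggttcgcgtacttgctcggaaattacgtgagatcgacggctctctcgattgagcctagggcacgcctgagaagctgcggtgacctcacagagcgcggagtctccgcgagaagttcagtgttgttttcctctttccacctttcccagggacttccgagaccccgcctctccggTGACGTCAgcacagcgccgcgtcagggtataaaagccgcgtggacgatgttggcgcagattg

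The element, whose letters read the same on both strands, was found in 373 of 11451 promoters of tested protein-coding genes (3.26%) and in 2 of the 45 members, the other being Hsp90ab1. A match is a description of the letters and says nothing of use in these cells.

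Genes of the immediate early class, which cells switch on within minutes of stimulation or of tissue dissociation, were in part lower as well. Of the 12 genes listed, DESeq2 called 3 lower in R26-TIR1(F74G) and 0 higher, where it called 0.336% of all tested genes lower, and edgeR called 1 lower. Jun, a subunit of the AP-1 transcription factor, fell by 0.71 on the log2 scale (DESeq2 adjusted p 0.00109, edgeR adjusted p 0.0473). Junb and Fos, both AP-1 subunits as well, fell by 0.70 (DESeq2 adjusted p 0.00279, edgeR adjusted p 0.0673) and 0.88 (DESeq2 adjusted p 0.0493, edgeR adjusted p 0.244) in the DESeq2 fit. R26-WT replicate 1, the highest library for Ppp1r15a, was also the highest for Jun, Junb and Fos. For Fos it had 7013 normalized counts, against 2703 to 3532 in the other R26-WT libraries and 1635 to 3175 in R26-TIR1(F74G). Egr1, also of the list, had a log2 fold change of 0.06, and Atf3, its highest member with 4 to 27 raw counts per library, one of 1.19 (DESeq2 adjusted p 0.727). The list summed to 4071 to 5643 TPM in R26-WT and 3281 to 4148 TPM in R26-TIR1(F74G). Its part in the lower Ppp1r15a was not tested. Of the other genes in the pathway of Ppp1r15a, Ddit3 had a log2 fold change of −0.12 (SE 0.19) and Atf4, the transcription factor translated when eIF2 is phosphorylated, one of −0.18 (SE 0.17), and neither was called. Over the 10 libraries the log2 levels of Ddit3 and Ppp1r15a had a Pearson r of −0.05 (permutation p 0.885, adjusted over 8 pairs of genes 0.948) and a Spearman rho of −0.04 (permutation p 0.917, adjusted 1). Without the 2 libraries farthest from the median r was −0.56 (permutation p 0.148).

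**Figure D2:**
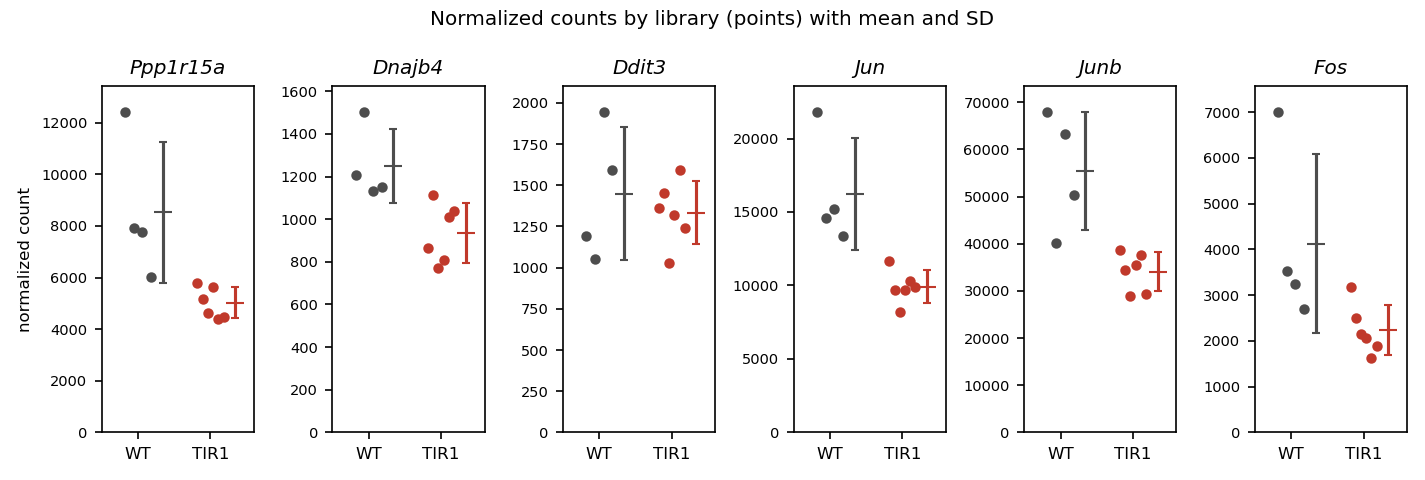
Normalized counts (vertical axes, from 0) of Ppp1r15a, Dnajb4, Ddit3, Jun, Junb and Fos in each library (points), with the mean and SD beside them, for the 4 R26-WT libraries in grey and the 6 R26-TIR1(F74G) libraries in red. The groups do not overlap for Ppp1r15a, Dnajb4, Jun and Junb, and they overlap for Ddit3 and Fos.

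The cytosolic J proteins stimulate the ATPase of HSP70 and pass substrates to it. Among the 5 listed, Dnajb4 stood lowest. Its normalized counts were 1208, 1504, 1132 and 1149 in R26-WT replicates 1 to 4, and 864.9, 1115, 769.4, 806.6, 1010.1 and 1040.0 in R26-TIR1(F74G) replicates 5 to 10. The groups did not overlap, but the gap was narrow, with 1115 as the highest R26-TIR1(F74G) value and 1132 as the lowest R26-WT value. The log2 fold change was −0.42 (SE 0.15, 95% interval 0.612 to 0.917 fold, unadjusted p 0.00523, DESeq2 adjusted p 0.182, edgeR adjusted p 0.368). Dnajb4 was not called in any of the 10 fits that left out 1 library (DESeq2 adjusted p 0.0859 to 0.444). With a surrogate variable in the DESeq2 design it was called (adjusted p 0.0263), as was Sdf2l1 with a log2 fold change of 0.27 (adjusted p 0.0418), in a fit that called 4.54% of all tested genes. The other 4 J proteins, Dnaja1, Dnaja2, Dnajb1 and Dnajb6, had log2 fold changes of −0.12, −0.08, −0.04 and 0.02.

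Hsf1, the master regulator of the heat shock response, was among the steadiest members. Its normalized counts were 6067, 6230, 5534 and 5976 in R26-WT and ranged from 5800 to 6680 in R26-TIR1(F74G), with a median of 6024. The groups overlapped and the log2 fold change was 0.03 (SE 0.081, 95% interval 0.917 to 1.14 fold, DESeq2 adjusted p 0.99996). The pooled SD within groups was 0.075 on the log2 scale, at percentile 1.63 of all tested genes, where the median gene had 0.299.

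Hspa1a and Hspa1b, the neighbouring genes of the stress-inducible HSP70, varied most of the 45 between libraries. They lie on chromosome 17 at 35188166 to 35191132 and 35175412 to 35178214, both on the minus strand. Hspa1a had normalized counts of 54.9, 409.3, 18.7 and 287.5 in R26-WT replicates 1 to 4. In R26-TIR1(F74G) replicates 5 to 10 it had 449.8, 307.1, 44.4, 150.3, 31.4 and 946.2. High and low libraries occurred in both groups, and the highest was 50.55 times the lowest. Hspa1b had 437.9, 2295, 153.8 and 1731 normalized counts in R26-WT and 3020, 1941, 512.9, 1070.1, 272.5 and 4795 in R26-TIR1(F74G), a 31.2-fold range. Both genes were lowest in R26-WT replicate 3 and highest in R26-TIR1(F74G) replicate 10. Their log2 fold changes of 0.74 (SE 1.04) and 0.75 (SE 0.90), both with a DESeq2 adjusted p of 0.99996, were smaller than the spread between libraries. The 95% intervals, from 0.407 to 6.85 fold and from 0.493 to 5.70 fold, leave room for a change of either direction. With limma voom and quality weights the log2 fold changes were 1.43 and 1.34, again not called (adjusted p 0.716 and 0.701). Without R26-TIR1(F74G) replicate 10 the DESeq2 values were 0.03 and 0.24, and without R26-WT replicate 2 they were 1.417 and 1.32. The SD within groups was 1.96 and 1.66 on the log2 scale, at percentiles 99.9 and 99.7 of all tested genes.

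Hspa1a and Hspa1b varied together across libraries (Pearson r 0.993, permutation p 1e-05, the smallest that 100000 resamples can give, adjusted 8e-05, Spearman rho 0.988, permutation p 1e-05, adjusted 8e-05). Without the 2 libraries farthest from the median r was 0.992, and within the 6 R26-TIR1(F74G) libraries it was 0.993. Of the stretches of 31 bases in Hspa1a transcripts, 63.8% also occur in those of Hspa1b, and Gm20481 overlaps 19.01% of the exon bases of Hspa1a. The authors' counting kept primary alignments with a mapping quality of at least 30, so read pairs from shared stretches may be missing or split, and the level of each gene is uncertain. For Hspa1a and Dnajb1, the J protein partner of inducible HSP70, the relation did not pass after adjustment (r 0.66, permutation p 0.0424, adjusted 0.0678, rho 0.60, permutation p 0.0722, adjusted 0.116). Their r was 0.70 without the 2 libraries farthest from the median and 0.496 within the R26-TIR1(F74G) libraries (adjusted exact permutation p 0.159 and 0.478). Fos, set beside Hspa1a as a gene known to respond to dissociation, showed no such relation over the 10 libraries (r −0.11, permutation p 0.784, adjusted 0.948, rho 0.0061, permutation p 1). Its r was −0.36 without the 2 libraries farthest from the median and 0.47 within the R26-TIR1(F74G) libraries (exact permutation p 0.398 and 0.358).

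The other members of this family varied less between libraries than Hspa1a and Hspa1b. Hspa8, the housekeeping HSP70 of the cytosol, had normalized counts of 6935, 8998, 4807 and 7369 in R26-WT and 4793 to 10114 in R26-TIR1(F74G), with a log2 fold change of −0.01 (SE 0.24, 95% interval 0.714 to 1.39 fold, DESeq2 adjusted p 0.99996). Hspa4 and Hsph1, exchange factors of the HSP110 type, and Hspa14, which works at the ribosome, had log2 fold changes of 0.07, −0.02 and 0.07. Bag3, the cochaperone that links HSP70 to autophagy, had the third largest spread, with 210.2 to 597.01 normalized counts in R26-WT and 187.1 to 747.6 in R26-TIR1(F74G), and a log2 fold change of −0.02 (SE 0.41). It was low in R26-WT replicate 1 and R26-TIR1(F74G) replicates 7 and 9, where Hspa1a was low too, but not in R26-WT replicate 3, where Hspa1a was lowest.

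**Figure D3:**
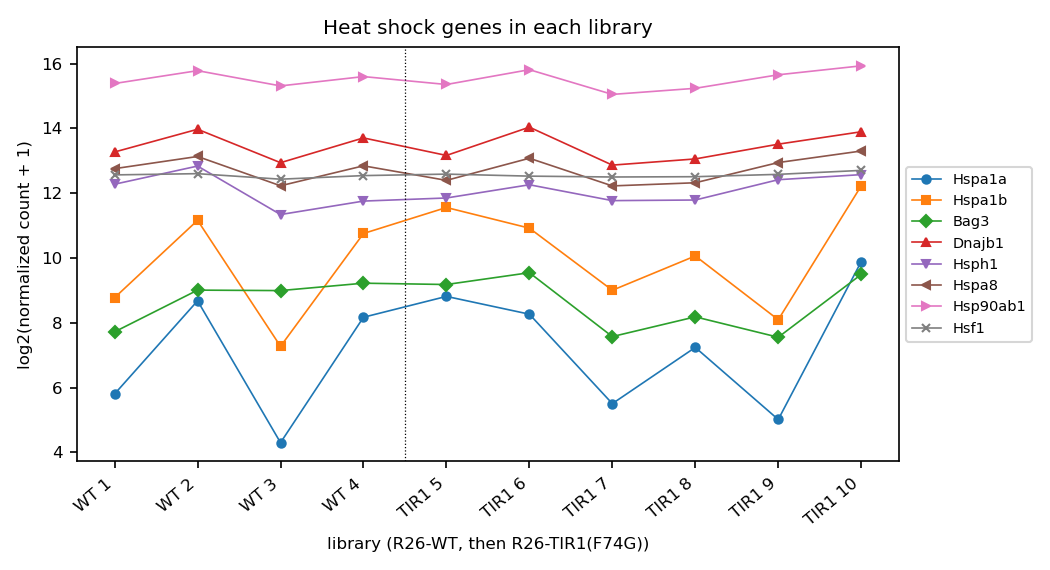
Log2(normalized count + 1) of 8 heat shock genes (vertical axis) in each of the 10 libraries, R26-WT left and R26-TIR1(F74G) right of the dotted line, with lines joining the values of each gene. Hspa1a and Hspa1b swing together in both groups over 50.55-fold and 31.2-fold ranges, Bag3 over a 3.996-fold range, and Hsf1 is nearly flat.

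HSP90 completes the folding of many kinases and receptors. Hsp90ab1, its constitutive form, was the most abundant member per length, at 1071 ± 224.5 TPM in R26-WT (SD, n = 4) and 1104 ± 224.3 TPM in R26-TIR1(F74G) (SD, n = 6). Its normalized counts were 42904, 56452, 40742 and 49737 in R26-WT and 33965 to 62588 in R26-TIR1(F74G), with a log2 fold change of 0.01 (SE 0.19, 95% interval 0.777 to 1.30 fold, DESeq2 adjusted p 0.99996). Hsp90aa1, the inducible form, had 6352, 7852, 6855 and 8252 normalized counts in R26-WT and 5118 to 8791 in R26-TIR1(F74G), with a log2 fold change of −0.05 (SE 0.16, 95% interval 0.776 to 1.196 fold, DESeq2 adjusted p 0.99996). Gm12346 transcripts share 35.99% of the 31-base stretches of Hsp90aa1. For both genes R26-TIR1(F74G) replicate 7 was the lowest library and replicate 10 the highest. Over the 10 libraries they varied together (r 0.89, permutation p 0.00041, adjusted 0.00164, rho 0.85, permutation p 0.0029, adjusted 0.0116). The relation passed the threshold with the 2 libraries farthest from the median and not without them, when r was 0.77 over fewer libraries (adjusted permutation p 0.127). Within the R26-TIR1(F74G) libraries r was 0.93 (exact permutation p 0.00417, adjusted 0.0167).

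The cochaperones Stip1, which bridges HSP70 and HSP90, Ahsa1, which activates the HSP90 ATPase, and Bag1, an HSP70 exchange factor, had log2 fold changes of 0.07, −0.02 and −0.07. The chaperonin subunits Cct2, Cct3, Cct5 and Tcp1, which fold actin and tubulin, had values from −0.05 to 0.04, and for all 4 the 95% interval stayed within 1.5 fold. Cct5 had 524.6 ± 13.3 TPM in R26-WT (SD, n = 4) and 527 ± 45.2 TPM in R26-TIR1(F74G) (SD, n = 6).

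The mitochondrial chaperones Hspa9, Hspd1 and Hspe1, which take up and fold imported proteins, had log2 fold changes of 0.08, 0.04 and 0.06, each with a 95% interval within 1.5 fold. Hspd1, the HSP60 ring, had normalized counts of 5098, 5543, 4663 and 4927 in R26-WT and 4227 to 5987 in R26-TIR1(F74G) (log2 fold change SE 0.14, 95% interval 0.852 to 1.24 fold, DESeq2 adjusted p 0.99996). Hspe1, its lid, lies head to head with Hspd1 and shares its promoter. Over the 10 libraries both varied together (r 0.80, permutation p 0.00706, adjusted 0.0188, rho 0.81, permutation p 0.00674, adjusted 0.0141). It too passed with the 2 libraries farthest from the median and not without them, when r was 0.66 (adjusted permutation p 0.159). Within the R26-TIR1(F74G) libraries it was 0.95 (exact permutation p 0.0222, adjusted 0.0593). An r with Hspd1 of at least that of Hspe1 was found for 72 of 16361 other tested genes (0.44%). The exons of Hspd1 and Hspe1 overlap each other, by 4.24% and 7.6% of their bases, in counts made without strand.

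The shared promoter is shown because it was the only one among the 45 with a match to the heat shock element GAANNTTCNNGAA, searched on both strands. It is printed in the direction of Hspd1 (chr1:55127134-55127433, minus strand, GRCm39), and capitals mark overlapping matches from 52 to 35 bases before the start of Hspd1.

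Hspd1: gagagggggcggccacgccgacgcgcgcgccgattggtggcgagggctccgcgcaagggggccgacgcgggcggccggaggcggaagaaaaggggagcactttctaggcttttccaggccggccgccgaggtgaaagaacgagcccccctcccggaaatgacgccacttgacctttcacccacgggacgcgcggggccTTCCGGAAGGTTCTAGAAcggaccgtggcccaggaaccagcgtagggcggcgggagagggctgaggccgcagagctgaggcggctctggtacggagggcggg

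The element was found in 49 of 11451 promoters (0.428%). Hspa1a, Hspa1b, Hsph1 and Dnajb1 had no match to these letters in this window, from which nothing follows about HSF1.

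In the ER set, the sensors had the lowest TPM, a level per length, and the widest intervals after the inducible HSP70 genes, Bag3 and Hyou1. Ern1 encodes IRE1, which splices Xbp1 mRNA, Atf6 a membrane-bound transcription factor, and Eif2ak3 the eIF2 kinase PERK. Ern1 had 1.16 ± 0.45 TPM in R26-WT (SD, n = 4) and 1.51 ± 0.79 TPM in R26-TIR1(F74G) (SD, n = 6). Its normalized counts were 149.7, 193.8, 108.2 and 101.5 in R26-WT and 162.9, 133.5, 321.3, 180.4, 109.2 and 126.7 in R26-TIR1(F74G) replicates 5 to 10. The log2 fold changes of Ern1, Atf6 and Eif2ak3 were 0.32 (SE 0.31), 0.18 (SE 0.31) and 0.11 (SE 0.29), and that of Hyou1, an ER exchange factor of the HSP110 type, was 0.26 (SE 0.32). None was called (DESeq2 adjusted p 0.99996 for each), and the 95% interval of all 4 reached past 1.5 fold.

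The levels of these 4 genes followed a property of the whole library. For each library the slope of log2 counts on log2 exon length, relative to the mean of each gene, was computed over the tested genes, and it ran from −0.10 in R26-WT replicate 3 to 0.12 in R26-TIR1(F74G) replicate 7. In a description of 4 genes chosen after their spread was seen, log2 levels over the 10 libraries followed this slope with a Pearson r of 0.92 for Ern1, 0.91 for Atf6, 0.97 for Eif2ak3 and 0.98 for Hyou1. The Spearman rho lay between 0.93 and 0.99. An r at least as high as the lowest of these was found for 7 of the 45 members (15.6%) and for 1804 of all 16363 tested genes (11.02%), so the relation is not particular to these genes. Without the 2 libraries farthest from the median r was 0.85 to 0.97, and within the R26-TIR1(F74G) libraries it was 0.86 to 0.96. The labels give RNA integrity numbers from 5.5 to 9.3 for the RNA used, without assigning them to libraries, so their part in the slope was not tested. The slopes of the groups overlapped, from −0.10 to 0.08 in R26-WT and from −0.06 to 0.12 in R26-TIR1(F74G).

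With the trend on exon length removed from each library, the SD within groups fell from 0.51 to 0.33 for Ern1, from 0.55 to 0.37 for Atf6, from 0.53 to 0.38 for Eif2ak3 and from 0.61 to 0.43 for Hyou1. The median SD over all tested genes was 0.299 before and 0.271 after. Sel1l, a subunit of the ER ubiquitin ligase, had an SD of 0.27 before and 0.096 after, and Dnajc3, an ER J protein, 0.15 before and 0.039 after. For other members the removal added spread, as for Hsf1, from 0.075 to 0.18, and Dnajb6, from 0.098 to 0.23. Hspa1a was at 1.96 before and 1.97 after. The log2 fold changes of Ern1, Atf6, Eif2ak3 and Hyou1 were then 0.23, 0.12, 0.06 and 0.21, and DESeq2 called none of them (adjusted p 0.992 or above).

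**Figure D4:**
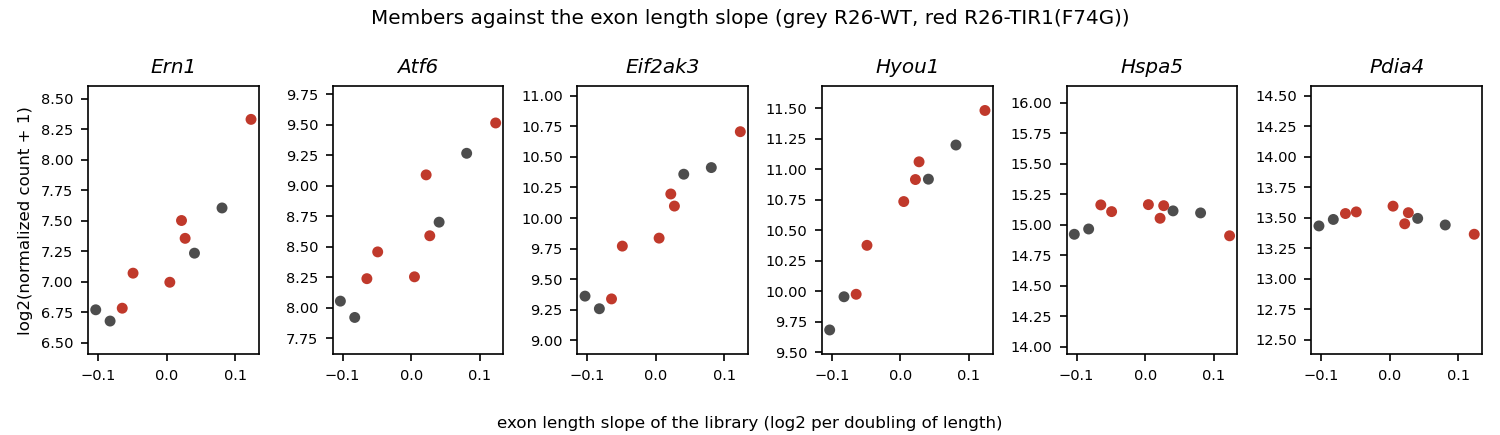
Log2(normalized count + 1) of 6 ER members (vertical axes, each spanning the same number of log2 units) against the exon length slope of the library (horizontal axis, log2 per doubling of length), with R26-WT libraries in grey and R26-TIR1(F74G) libraries in red. Ern1, Atf6, Eif2ak3 and Hyou1 climb along the slope in both groups, while Hspa5 and Pdia4 stay within 1.19-fold and 1.17-fold ranges.

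Downstream of the sensors, Xbp1 encodes the transcription factor that IRE1 activates by splicing, which counts per gene do not show. Its normalized counts were 9404, 8477, 10460 and 10317 in R26-WT and 8595 to 11595 in R26-TIR1(F74G), with a log2 fold change of −0.00042 (SE 0.12, 95% interval 0.845 to 1.18 fold, DESeq2 adjusted p 0.99996). Ddit3, which encodes CHOP, a transcription factor tied to cell death in prolonged stress, had 1194, 1055, 1947 and 1594 normalized counts in R26-WT and 1029 to 1590 in R26-TIR1(F74G), with a log2 fold change of −0.12 (SE 0.19, 95% interval 0.711 to 1.19 fold, DESeq2 adjusted p 0.99996). The groups overlapped for both genes. Exons of Gm4189 and Mars1 overlap 4.73% of those of Ddit3, and 74.9% of the 31-base stretches of Ddit3 transcripts also occur in those of other genes, 59.1% in those of Mars1, so its level is uncertain. The share was higher for 1 other member, Dnaja1, at 80.2%, of which Smu1 held most.

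Of the large ER chaperones, Hspa5 and Hsp90b1 were abundant and steady. Hyou1, described above, had 14.6 TPM in R26-WT and 18.0 TPM in R26-TIR1(F74G) and a wider spread. Hspa5, which encodes BiP, the ER HSP70 that also holds the sensors inactive, had 533.0 ± 78.3 TPM in R26-WT (SD, n = 4) and 576.7 ± 29.1 TPM in R26-TIR1(F74G) (SD, n = 6). Its normalized counts were 35414, 35007, 31005 and 31953 in R26-WT and 36476, 35268, 30739, 33958, 36639 and 36698 in R26-TIR1(F74G). The log2 fold change was 0.07 (SE 0.091, 95% interval 0.927 to 1.19 fold, DESeq2 adjusted p 0.99996), and the groups overlapped. Hsp90b1, the ER HSP90, had 14265, 16176, 12139 and 13374 normalized counts in R26-WT and 13524 to 17229 in R26-TIR1(F74G), with a log2 fold change of 0.05 (SE 0.12, 95% interval 0.882 to 1.22 fold, DESeq2 adjusted p 0.99996). Over the 10 libraries Hspa5 and Hsp90b1 had a Pearson r of 0.69 (permutation p 0.0261, adjusted 0.0522) and a Spearman rho of 0.81 (permutation p 0.00706, adjusted 0.0141). The rho passed the threshold with the 2 libraries farthest from the median and not without them (r 0.54, rho 0.69, adjusted permutation p 0.214 and 0.185). Within the R26-TIR1(F74G) libraries r was 0.56 and rho 0.94 (adjusted exact permutation p 0.339 and 0.0333). Hspa5 and Xbp1 had an r of −0.02 (permutation p 0.948, adjusted 0.948) and a rho of −0.09 (permutation p 0.81, adjusted 1), and r was −0.09 without the 2 libraries farthest from the median.

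The disulfide isomerases Pdia4 and Pdia6, which form and shuffle disulfide bonds, had log2 fold changes of 0.04 and −0.03. Pdia4 had the smallest spread of all 45 members, with 11051 to 11534 normalized counts in R26-WT and 10540 to 12364 in R26-TIR1(F74G). The ER J proteins Dnajb9, Dnajb11 and Dnajc3 were at −0.08, 0.03 and 0.08. Among the small stress proteins, Sdf2l1 was at 0.17 (SE 0.19), Manf, a secreted survival factor, at −0.09 (SE 0.19) and Creld2 at −0.08 (SE 0.17). Of the degradation genes, Herpud1, which organizes the ER ubiquitin ligase, was at −0.16 (SE 0.11), Edem1, which selects misfolded glycoproteins, at 0.0025 (SE 0.21) and Sel1l at 0.09 (SE 0.18).

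A match to the ER stress response element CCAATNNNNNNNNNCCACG, searched on both strands, was found in 16 of 11451 promoters (0.14%), and 5 of the 45 members had one. The matches are shown because the element is the known landing place of ATF6 and links these members by sequence. They are printed in the direction of the element, with its fixed letters in capitals, and Hsp90b1 has a pair of them.

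Hspa5, chr2:34661854-34662153 plus strand, 67 to 49 bases before the start site: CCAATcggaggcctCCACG
Hsp90b1, chr10:86541329-86541628 minus strand, 142 to 124 bases before: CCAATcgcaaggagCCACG
Hsp90b1, 37 to 19 bases before: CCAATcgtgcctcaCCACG
Pdia6, chr12:17316283-17316582 plus strand, 41 to 23 bases before: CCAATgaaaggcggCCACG
Dnajc3, chr14:119175095-119175394 plus strand, 106 to 88 bases before: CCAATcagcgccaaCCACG
Creld2, chr15:88703563-88703862 plus strand, 90 to 72 bases before: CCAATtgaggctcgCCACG

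The coordinates give the window of 300 bases searched for each gene in GRCm39. The 5 genes had log2 fold changes from −0.08 to 0.08 and SDs within groups from 0.098 to 0.25. None passed the test (DESeq2 adjusted p 0.99996 for each).

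**Figure D5:**
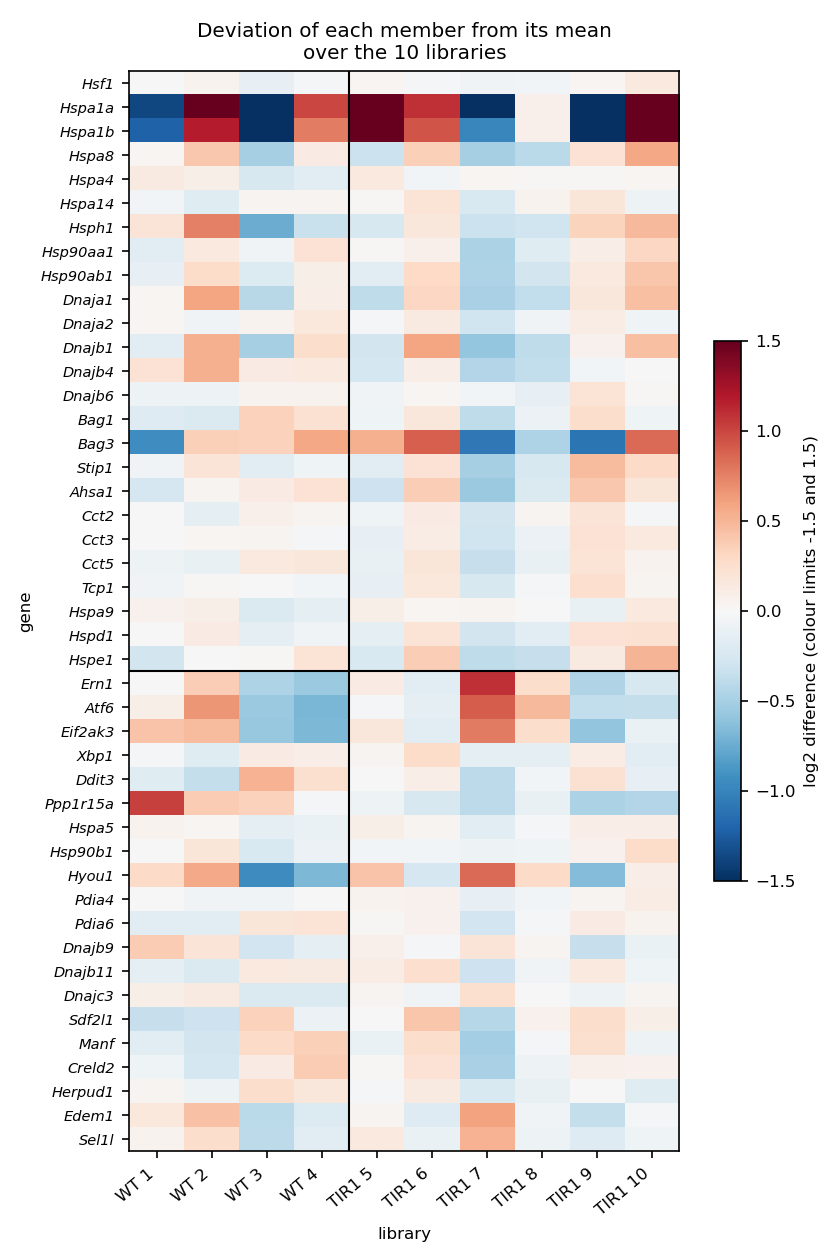
Log2 difference of each of the 45 members (rows) from its own mean over the 10 libraries (columns, R26-WT left and R26-TIR1(F74G) right of the vertical line), with the cytosolic and mitochondrial genes above and the ER genes below the horizontal line and colours ending at a difference of 1.5 either way. Hspa1a and Hspa1b change colour between libraries of the same group, and the sensors and Hyou1 are highest in R26-TIR1(F74G) replicate 7. Ppp1r15a is below its mean in all 6 R26-TIR1(F74G) libraries and slightly below it in R26-WT replicate 4.

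Further genes of the same pathways were taken from lists beside the members. The 6 lists held 135 genes, of which 128 were tested. DESeq2 called 0 of the 128 and edgeR called 0, where they called 1.74% and 0.373% of all tested genes. An unadjusted p under 0.05 was reached by 4 of the 128 with DESeq2 and 2 with edgeR, against 6.86% and 6.21% of all tested genes. The untested genes were Hspa12b, Hspb1, Hspb8, Cryab, Pdia5, Chac1 and Nupr1, which include the small heat shock genes Hspb1, Hspb8 and Cryab. Hspb6 and Hspb11 were tested and not called. Among 35 tested cytosolic HSP90, HSP70 and cochaperone genes the median was 0.0051, from Hspa12a at −0.24 to Bag2 at 0.77. Bag2 had 26 to 134 raw counts per library (SE 0.36, DESeq2 adjusted p 0.599), and its groups overlapped. The 11 chaperonin and prefoldin genes had a median of −0.07, from Pfdn2 at −0.14 to Cct6a at 0.06. The 12 genes of mitochondrial protein quality control had a median of −0.05, from the protease subunit Clpp at −0.17 to Afg3l2 at 0.06.

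Of the ER lists, the 31 tested folding genes had a median of −0.04, from Fkbp11 at −0.47, a gene with 9 to 57 raw counts per library, to the lectin chaperone Canx at 0.17. The 18 genes of ER associated degradation had a median of 0.02, from Erlec1 at −0.15 to Derl3 at 0.89, with 11 to 68 raw counts per library. The 21 tested genes of the integrated stress response had a median of 0.13. Its lowest was Cebpb at −0.54 (unadjusted p 0.00153, DESeq2 adjusted p 0.0763), whose groups did not overlap. Its highest was Atf3 at 1.19 (DESeq2 adjusted p 0.727), with 4 to 27 raw counts per library.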

How the data were processed

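The deposited values were raw counts of read pairs per gene, 1 table for each of 10 libraries, made by the authors with featureCounts 2.1.1 on GENCODE M30 (GRCm39), per the file headers. Primary alignments with both mates mapped and a mapping quality of at least 30 were counted, with no strand option, so overlapping or antisense genes are uncertain. The study's methods name STAR 2.7.10b as aligner and the submitters' processing notes name Bowtie2. Libraries were made from amplified cDNA without molecular identifiers, so counting error is a lower limit. Totals per library were 24158699 to 54795718 counts, and the lowest raw count of a member in any library was that of Hspa1a, at 23.

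Genes averaging 10 counts or more over the libraries were fitted with DESeq2 1.42.0 (genotype as the only term, Wald test, Benjamini-Hochberg adjusted p under 0.05), as in the study's methods, with the edgeR 4.0.16 quasi-likelihood test beside it (R 4.3.3). Alternatives were limma 3.58.1 voom, other scalings and filters, removal of a spline trend on exon length, a surrogate variable (sva 3.50.0) and leaving out each library. The code was tested on simulated data first. TPM were computed from counts and exon lengths. Intervals are 1.96 SE either way. Promoters and motifs were read from GRCm39 with GENCODE M39, whose 11451 promoters of tested protein-coding genes served as background. No sequences of proteins were used here. Full statistics are given for members called by either test, members with an unadjusted p under 0.05, and 12 chosen by name. Others are given by fold change or range. Of further pathway lists the lowest and highest gene are named, and Atf4, Egr1, Jun, Junb, Fos, Pcna, Cd22 and Cd79b were named after their values were seen, as were members singled out for their spread. The members and all lists were chosen with earlier results of these data known. The result of 1 marker gene is not reported here.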

Additional observations from a re-analysis of the deposited data

Results flagged for a closer look

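In 4 of 92 groups of values, 1 library lay far from the others of its group by Dixon's criterion, where chance gives about 1 in 20 groups, or 4.6 of 92. All 4 were the highest library of the R26-TIR1(F74G) group. In replicate 7, Ern1 had 321.3 normalized counts against 109.2 to 180.4 in the other 5 libraries, Dnajc3 had 10872 against 8786 to 9531, and Edem1 had 15839 against 8136 to 10715. Replicate 7 is also the library with the highest slope of counts on exon length, 0.12 on the log2 scale per doubling of length. In replicate 5, Hspa4 had 11080 normalized counts (11079.7 before rounding) against 9700 to 10208 in the others. None of these genes was called by DESeq2 (adjusted p 0.99996 for each).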

How the results depend on the processing

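Against 284 genes called by DESeq2 (229 higher, 55 lower) and 1 member, edgeR called 61 genes (54 higher, 7 lower) and 0 members, 0 of them in the ER set. Limma voom with quality weights called 80 (69 higher, 11 lower) and 0 members, 0 in the ER set. With a surrogate variable DESeq2 called 743 genes (468 higher, 275 lower) and 3 members, 1 cytosolic (Dnajb4, −0.41, adjusted p 0.0263) and 2 of the ER (Ppp1r15a and Sdf2l1). With the exon length trend removed the lower calls numbered 86 (262 higher). The cause of these differences was not tested. Ppp1r15a was at −0.77 with edgeR (adjusted p 0.0928) and −0.64 with voom (adjusted p 0.143), past the threshold in neither. Without 1 library at a time 187 to 346 genes were called, 158 to 258 higher and 26 to 88 lower, with 1 member called each time. The total was 187 without R26-WT replicate 4, and the lower calls were 31, 88, 26 and 29 without R26-WT replicates 1, 2, 3 and 4, and 35 without R26-TIR1(F74G) replicate 10.

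Members near 0 changed sign. Xbp1 was at 0.00044 without a filter, 0.0019 with 10 counts in 4 libraries and 0.046 with the surrogate variable, where Ddit3 was at 0.0103. Without the length trend Hsf1 was at −0.038 and Hsp90ab1 at −0.0081. Leaving out 1 library gave −0.0597 to 0.0406 for Xbp1, −0.24 to 0.0575 for Ddit3, −0.15 to 0.14 for Hspa8, −0.12 to 0.0241 for Hsp90aa1, −0.0813 to 0.10 for Hsp90ab1, −0.0029 to 0.0931 for Hspd1 and −0.0099 to 0.13 for Hsp90b1. Within R26-TIR1(F74G) the correlation was 0.37 for Hspa5 with Xbp1, 0.11 for Ddit3 with Ppp1r15a and 0.47 for Hspa1a with Fos.

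No paired analysis was possible because R26-WT and R26-TIR1(F74G) libraries carry different replicate numbers. With 4 against 6 libraries, genes as variable as Hspa1a allow no statement on changes under several fold.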
